A study of Mus musculus with 9 samples.

Results

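The subunits of the BAF, NuRD, ISWI and CHD chromatin remodelers were followed across 3 types of mouse primary culture. The members are 60 listed genes, chosen by their place in these complexes and not by a threshold on measured values. Of the 60, 59 were among the 25085 genes of the deposited count tables, and Srcap was not analysed here. The fit tested 57 of these 59 among 14850 genes. The 2 left out were Ss18, with 0 to 2 reads in each library, and Smarca1, with 1 to 15 reads in each library. Ss18 has 4 RefSeq accessions and Smarca1 has 2, and reads that fit more than 1 accession were not assigned. Their low counts therefore need not follow the level of either gene, as described below.

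The study set out 3 kinds of purified culture side by side, with 3 libraries each. DRG neurons came from dorsal root ganglia of E13.5 embryos and were kept in culture for about 2 weeks. OPCs, the progenitors of oligodendrocytes, came from cortex at postnatal days 6 to 9 and were kept for 6 to 7 days. Astrocytes came from cortex at postnatal days 1 to 3 and were grown for about 21 days to confluence. The labels state that OPC and astrocyte donors were of either sex, and they give no genotype, strain or treatment for any culture. Poly(A) RNA was read from each by stranded sequencing. The series is titled for nucleosome spacing in neurons and glia, the feature that remodelers act on. The 3 groups differ in tissue of origin, donor age and time in culture as well as in cell type, so these cannot be told apart.

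Remodelers use ATP to slide, evict or restructure nucleosomes through an ATPase of the Snf2 family that sits in a complex with non-catalytic partners. ISWI complexes and CHD1 can space nucleosomes evenly along DNA, BAF complexes open chromatin, and NuRD couples remodeling to histone deacetylation. Several BAF and NuRD positions can be filled by alternative paralogs. The best known case is the switch from Actl6a, Phf10, Dpf2 and Ss18 in neural progenitors to Actl6b, Dpf1, Dpf3 and Ss18l1 in neurons after their last division.

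The 9 libraries held 30710093 to 53594210 counts assigned to genes. Between 21.98% and 24.7% of reads per library were set aside by the authors' counting as falling on more than 1 transcript. All levels are CPM, counts scaled to the TMM-corrected number of assigned counts of the library. A list of 5 neuronal markers summed to 12458 to 13956 CPM in DRG libraries, 261 to 286 CPM in OPC libraries and 143 to 174 CPM in astrocyte libraries. Most of that astrocyte sum was Stmn2, at 104 to 139 CPM, against 0.291 to 4.72 CPM in OPC libraries. Of the 5, 4 were higher and 1 lower in OPC than in astrocytes, beside 26.3% and 25.5% of all genes. A list of 5 OPC markers summed to 10.1 to 24.8 CPM in DRG, 5066 to 5964 CPM in OPC and 280 to 1210 CPM in astrocyte libraries, and 5 astrocyte markers to 6.82 to 20.5 CPM in DRG, 762 to 1046 CPM in OPC and 5447 to 6668 CPM in astrocyte libraries. In astrocyte libraries most of the OPC marker sum was Olig1, at 223 to 1003 CPM, while Sox10 had 0.583 to 2.76 CPM. In OPC libraries most of the astrocyte marker sum was Slc1a3, at 631 to 923 CPM, while Aqp4 had 0.244 to 2.82 CPM. A list of 7 genes of dividing cells summed to 66.5 to 76.3 CPM in DRG libraries and 3208 to 5662 CPM in OPC libraries. In astrocyte replicates 1, 2 and 3 that list summed to 360, 2115 and 1551 CPM. Astrocyte replicate 1 also stood apart with 2413 CPM of 6 microglial markers, against 421 and 387 CPM in replicates 2 and 3, and with 426 CPM of 6 fibroblast and mural markers, against 4964 and 6237 CPM. The same fibroblast and mural markers summed to 238 to 474 CPM in DRG libraries and at most 2.07 CPM in OPC libraries. Most of the astrocyte sum was Acta2 alone, with 413, 4639 and 5997 CPM in replicates 1, 2 and 3. Marker by marker, 2 of these 6 were higher in DRG than in astrocytes, 1 was lower and 3 did not pass. Of all genes, 27.4% were higher and 32.7% lower. OPC replicate 3 stood apart by a loss of long transcripts, described with its members below. It also had 163 CPM of the microglial markers, against 14.6 and 45.4 CPM in OPC replicates 1 and 2, and 6.73% of its reads fell outside annotated features, against 11.1% and 10.2%. The part of dividing, microglial or mural cells in the results was not tested. In bulk cultures, fewer cells of a type and less RNA per cell cannot be told apart.

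Most remodeler subunits were lower in DRG neurons than in OPCs. In that comparison 43 of 57 members passed the edgeR quasi-likelihood test at an adjusted p under 0.05, against 59.5% of all tested genes. Of these, 37 were lower in DRG neurons and 6 higher, against 31.1% and 28.4% of all genes, and 29 were at least 2-fold lower, against 24.9%, and 6 at least 2-fold higher, against 25%. Of the 6 higher, only Actl6b and Chd3 have 1 RefSeq accession. Smarcd2, Dpf2, Chd5 and Mta3 have several, and their reads need not follow the level of the gene, as described below. The median log2 fold change of the members was -1.06, beside -0.08 for all tested genes. In OPCs against astrocytes 28 members passed, with 25 higher and 3 lower in OPCs, beside 51.8%, 26.3% and 25.5% of all genes. At least 2-fold, 14 were higher and 2 lower, beside 18.2% and 22.9%. The median there was 0.62, beside 0.09 for all genes. In DRG neurons against astrocytes 30 members passed, which is below the 60.2% of all genes. Of those, 10 were higher in DRG neurons and 20 lower, beside 27.4% and 32.7% of all genes. At least 2-fold, 7 were higher and 14 lower, beside 22.1% and 28.2%, and the median was -0.35, beside -0.13. Scaling by library size alone moved that last split to 8 higher and 29 lower, and it moved the median of all genes by -0.26. For the 47 members with 1 accession the medians were -1.16 in DRG against OPC, 0.52 in OPC against astrocytes and -0.38 in DRG against astrocytes. The 3 comparisons share libraries, so they are not independent of one another.

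**Figure D1:**
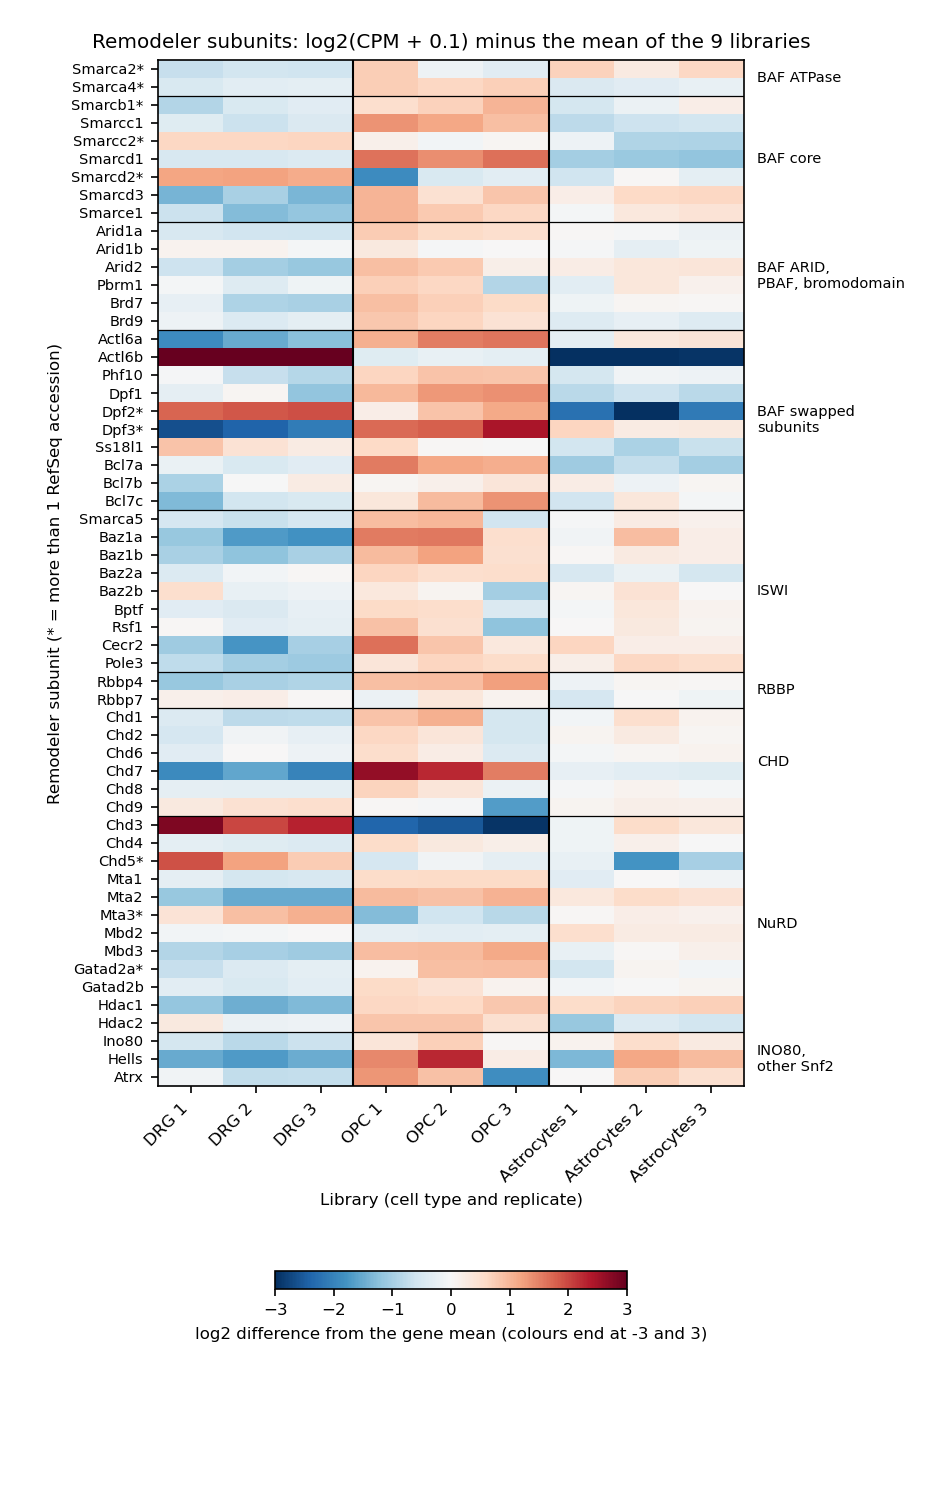
Level of the 57 tested remodeler subunits (rows, grouped by complex) in the 3 DRG, 3 OPC and 3 astrocyte libraries (columns), as log2(CPM + 0.1) minus the mean of the 9 libraries of that gene. Most rows are red in the OPC columns and blue in the DRG columns, while Actl6b and Chd3 are deepest red in the DRG columns and OPC replicate 3 is blue for long genes such as Atrx and Chd9.

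**Figure D2:**
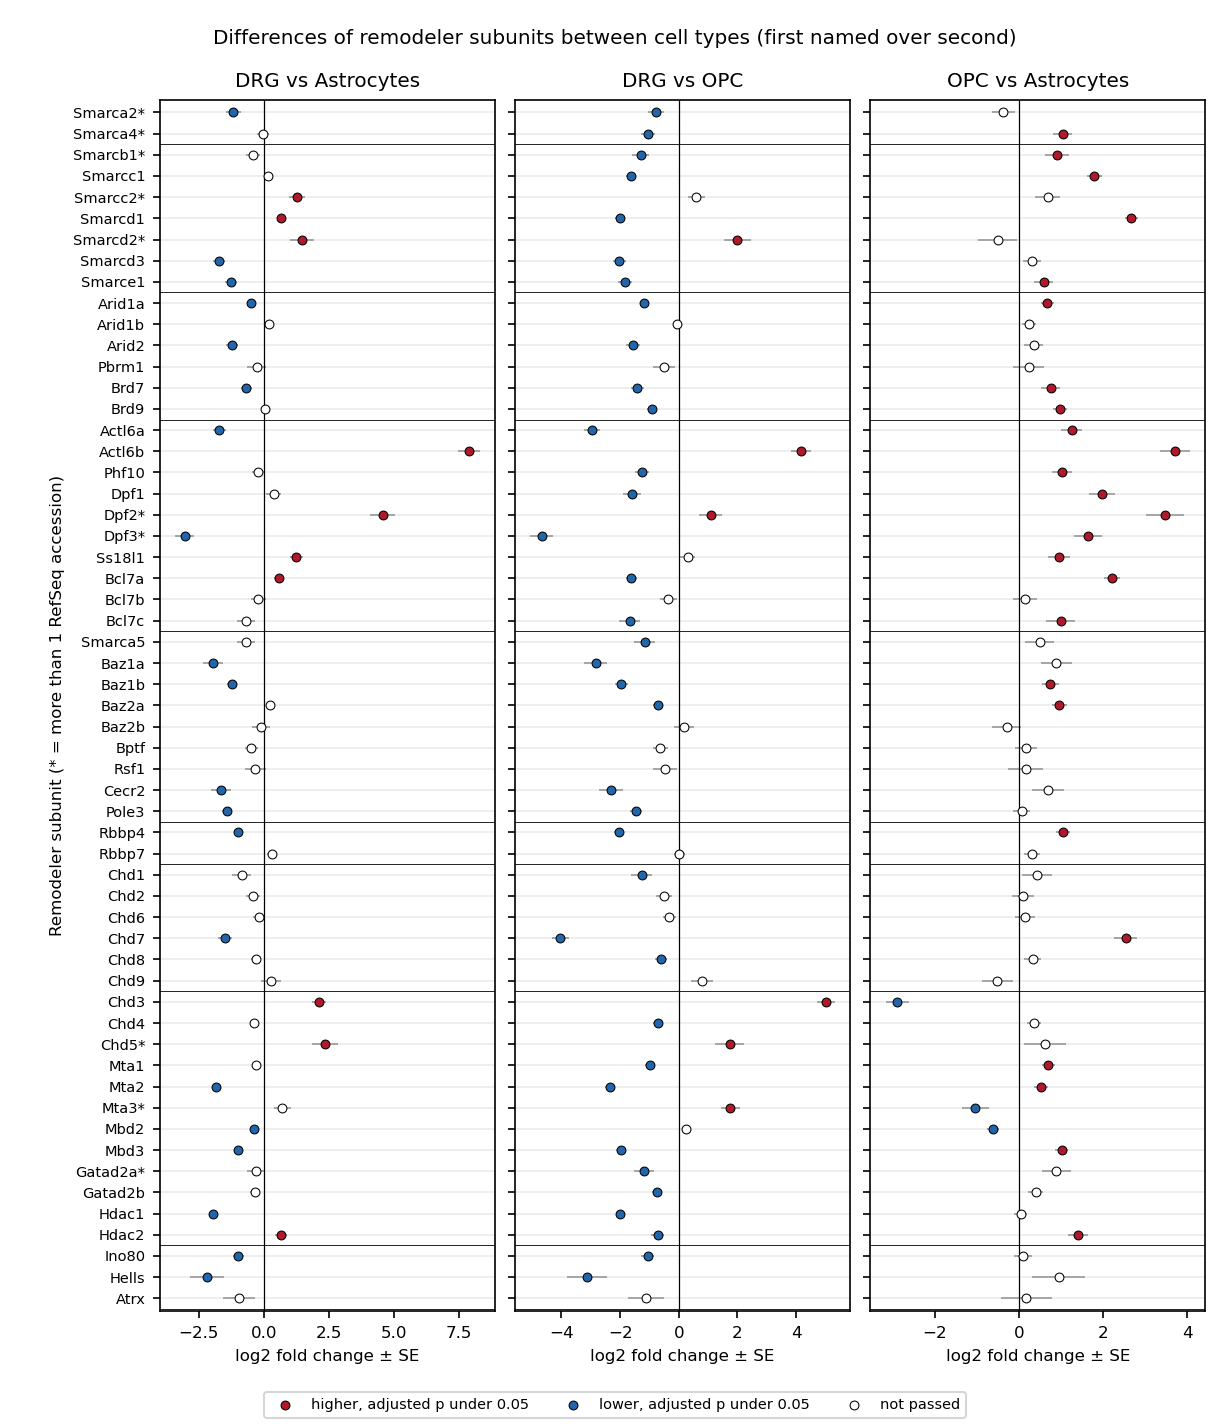
log2 fold change with its standard error (x axis) for each of the 57 tested members (y axis) in DRG against astrocytes, DRG against OPC and OPC against astrocytes, with 3 libraries a group. In the middle panel 37 members lie to the left with an adjusted p under 0.05 and 6 to the right.

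Reads that fit more than 1 RefSeq accession of a gene were not assigned, so the 12 members with several accessions were measured only through bases that 1 accession has to itself. These 12 genes had 32 accessions, of which 13 had 0 counts in every library. For these genes the level of the gene and the use of the exon cannot be told apart, and their levels are not set against those of other genes. The 47 members with 1 accession carry the comparisons between paralogs.

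The alternative BAF ATPases Smarca4 (BRG1) and Smarca2 (BRM) are both genes with several accessions. Smarca4 had 4.67, 5.12 and 5.24 CPM of isoform-specific reads in DRG libraries, 10.8, 9.87 and 10.6 CPM in OPC libraries and 4.72, 5.03 and 5.53 CPM in astrocyte libraries. The OPC libraries lay above all others, and the DRG and astrocyte libraries overlapped. The difference was 2.08-fold lower in DRG than in OPC (log2 -1.06 ± 0.23 SE, adjusted p = 0.00376). Smarca2 had 57.5, 63.1 and 61.4 CPM in DRG libraries, 156, 83.7 and 73.7 CPM in OPC libraries and 151, 113 and 143 CPM in astrocyte libraries. It fell 2.24-fold in DRG against astrocytes (adjusted p = 0.00548). In DRG against OPC its log2 difference was -0.78 with adjusted p = 0.0336, which became 0.107 without OPC replicate 1, the highest OPC library, and 0.0749 to 0.0859 without any 1 of the DRG libraries. Without OPC replicate 1 Smarca2 passed as lower in OPC than in astrocytes (-0.78, adjusted p = 0.011).

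Of the 7 BAF core members, which hold the ATPase on its scaffold, 5 were lower and 1 higher in DRG than in OPC, beside 31.1% and 28.4% of all genes. Against astrocytes 2 were lower and 3 higher in DRG, beside 32.7% and 27.4%, and 4 were higher in OPC, beside 26.3%. Smarcc1 (BAF155), a scaffold subunit, had 137, 113 and 131 CPM in DRG libraries, 446, 396 and 328 CPM in OPC libraries and 103, 115 and 120 CPM in astrocyte libraries. DRG and astrocyte libraries overlapped, while OPC libraries lay above both: Smarcc1 was 3.07-fold lower in DRG than in OPC (adjusted p = 6.07e-05), and OPCs exceeded astrocytes 3.46-fold (adjusted p = 6.81e-05). Smarcd1, a BAF60 subunit that links BAF to transcription factors, had 92, 92.7 and 96.7 CPM in DRG libraries, 397, 339 and 406 CPM in OPC libraries and 63.3, 58.9 and 56.8 CPM in astrocyte libraries. The groups were apart in all 3 comparisons, with the OPC libraries 6.38-fold above astrocytes (log2 2.67 ± 0.15, adjusted p = 5.84e-06) and the DRG libraries 0.65 above them on the log2 scale (adjusted p = 0.00344).

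Its paralog Smarcd3, the BAF60 form known from heart and neurons, followed another order. Smarcd3 had 17.9, 24.3 and 18.4 CPM in DRG libraries, 96.3, 65.8 and 84.9 CPM in OPC libraries and 54.5, 72.6 and 72.7 CPM in astrocyte libraries. It fell 4.07-fold in DRG against OPC (adjusted p = 7.21e-05) and 3.29-fold against astrocytes (adjusted p = 0.000171), and OPC and astrocyte libraries overlapped. Smarce1 (BAF57), a DNA-binding HMG subunit, had 78.3, 49.7 and 55.3 CPM in DRG libraries, 250, 213 and 189 CPM in OPC libraries and 119, 154 and 162 CPM in astrocyte libraries. It was 3.56-fold lower in DRG than in OPC (adjusted p = 0.000132) and 2.37-fold lower than in astrocytes (adjusted p = 0.00108). Its difference of 0.58 between OPC and astrocytes (adjusted p = 0.0485) was lost under 14 of 18 alternatives. Among them was leaving out any 1 of the OPC or astrocyte libraries or DRG replicate 3, with adjusted p from 0.0622 to 0.142.

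The other core members, Smarcb1, Smarcc2 and Smarcd2, were read through isoform-specific bases. Smarcb1, whose loss drives rhabdoid tumours, had 5.45, 7.43 and 7.95 CPM in DRG libraries, 14.4, 16.4 and 20.5 CPM in OPC libraries and 7.03, 9.05 and 11.6 CPM in astrocyte libraries. It was 2.46-fold lower in DRG than in OPC (adjusted p = 0.00382). Its rise of 0.89 in OPC over astrocytes (adjusted p = 0.027) was lost without OPC replicate 3 (adjusted p = 0.149), OPC replicate 2 (0.0564), astrocyte replicate 1 (0.0699) or astrocyte replicate 2 (0.0651). Smarcd2, another BAF60 gene, had 4.09, 4.15 and 3.87 CPM in DRG libraries, 0.402, 1.24 and 1.4 CPM in OPC libraries and 1.13, 1.8 and 1.41 CPM in astrocyte libraries. The DRG libraries lay above all others, 3.98-fold above OPC (adjusted p = 0.00492) and 2.79-fold above astrocytes (adjusted p = 0.0192, or 0.0513 without astrocyte replicate 1 and 0.0585 without astrocyte replicate 3).

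Smarcc2 (BAF170), the paralog of Smarcc1, showed its accessions moving apart. Summed, it had 8.97, 8.95 and 9.19 CPM in DRG libraries, 6.48, 5.45 and 6.02 CPM in OPC libraries and 5.19, 3.04 and 2.99 CPM in astrocyte libraries, and was 2.41-fold higher in DRG than in astrocytes (adjusted p = 0.00488). Without astrocyte replicate 1 the sum also passed as higher in OPC than in astrocytes (0.99, adjusted p = 0.015). The accession NM_001114096 is the only one with an exon of 93 coding bases and had 139, 247 and 264 counts in DRG libraries, 266, 228 and 222 counts in OPC libraries and 140, 54 and 64 counts in astrocyte libraries. The accession NM_001114097, which has 342 coding bases of its own, had 126, 178 and 92 counts in DRG libraries, 24, 40 and 28 counts in OPC libraries and 136, 74 and 44 counts in astrocyte libraries. In a fit per accession, chosen after the data were seen, OPC against astrocytes gave log2 1.48 for the first (adjusted p = 0.0066) and -1.45 for the second (adjusted p = 0.0148). In DRG against OPC the first gave 0.07 (adjusted p = 0.869) and the second 2.36 (adjusted p = 0.00102).

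The stretches through which 5 of these genes were counted are shown because their reads were assigned through such bases. Capitals mark the coding bases that no other accession of the gene has, and lower case the 15 transcript bases on either side. They were read from mm10 (GRCm38) transcripts of GENCODE, and whether the authors' annotation had the same bounds was not tested. They lie in coding exons at chr9:21686013-21686021 (plus strand, Smarca4), chr10:75916773-75916799 (minus strand, Smarcb1), chr10:128481682-128481774 (plus strand, Smarcc2), chr19:5903731-5903772 (minus strand, Dpf2) and chr4:152376580-152376690 (plus strand, Chd5). Their lengths of 9, 27, 93, 42 and 111 bases are all multiples of 3. Outside the coding region, Smarca4 has 13 further bases of this kind, and Smarcb1 has stretches of 8 and 3. Smarcc2 was also counted through NM_001114097, whose own 342 coding bases are not shown. In GENCODE the other Dpf2 accession has stretches of 871 and 79 bases to itself, yet it had 0 counts in every library. That the reads came from the bases shown is therefore inferred and was not tested.
Smarca4 NM_001174078: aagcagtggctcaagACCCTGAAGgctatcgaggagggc
Smarcb1 NM_011418: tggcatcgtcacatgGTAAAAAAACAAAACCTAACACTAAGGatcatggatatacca
Smarcc2 NM_001114096: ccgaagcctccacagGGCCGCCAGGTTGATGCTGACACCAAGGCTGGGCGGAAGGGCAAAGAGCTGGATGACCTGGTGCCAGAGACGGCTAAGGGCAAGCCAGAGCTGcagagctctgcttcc
Dpf2 NM_001291078: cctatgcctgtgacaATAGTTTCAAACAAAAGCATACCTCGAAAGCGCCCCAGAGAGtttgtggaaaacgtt
Chd5 NM_001081376: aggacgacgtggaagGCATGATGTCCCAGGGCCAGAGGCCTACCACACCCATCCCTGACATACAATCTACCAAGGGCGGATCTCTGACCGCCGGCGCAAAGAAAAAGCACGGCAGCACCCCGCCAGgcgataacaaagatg

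**Figure D3:**
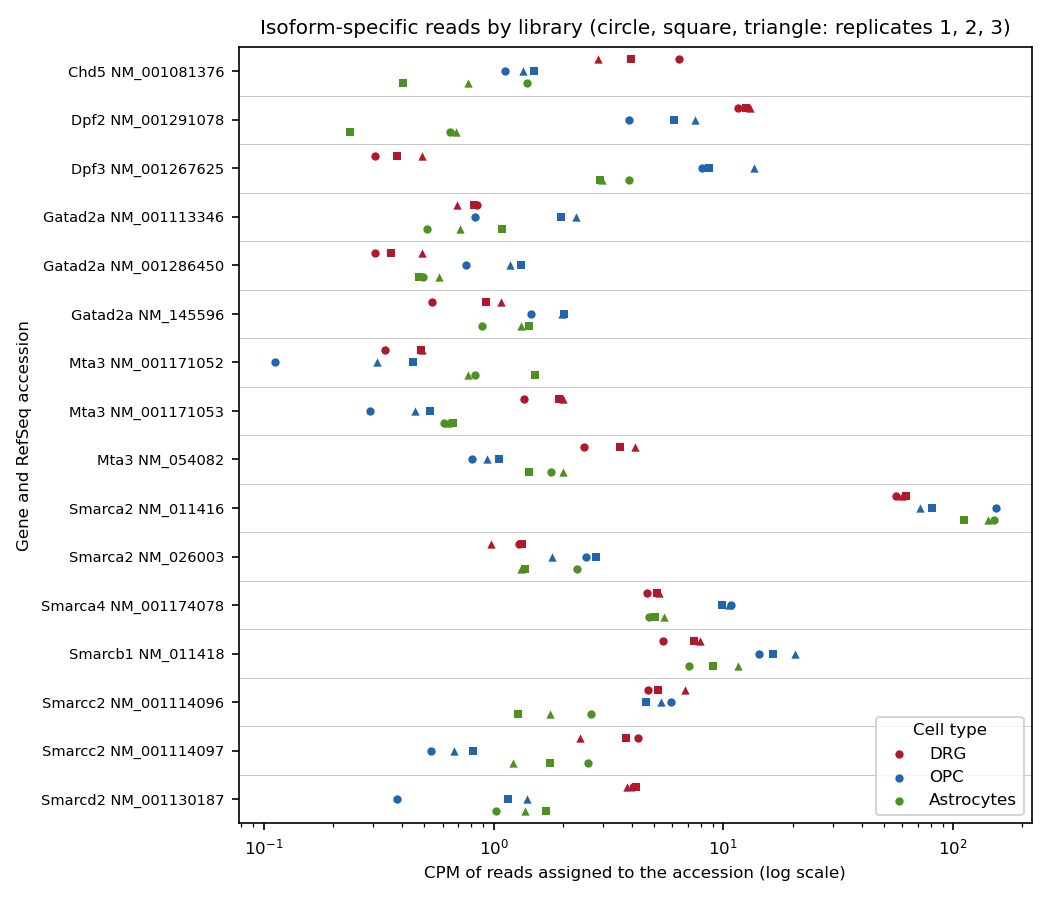
CPM of reads assigned to each RefSeq accession (x axis, log scale) in the DRG, OPC and astrocyte libraries, for the accessions of multi-accession members that were tested and detected in all 9 libraries. The Smarcc2 accession NM_001114097 is lowest in OPC libraries while NM_001114096 is lowest in astrocyte libraries, and Dpf2 NM_001291078 falls in the order DRG, OPC, astrocytes.

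In DRG against OPC the subunits that define the BAF subtypes spanned log2 differences of -1.56 to -0.04, beside -2.02 to 1.99 for the core members. Arid1a and Arid1b are alternative subunits of canonical BAF, Arid2, Pbrm1 and Brd7 belong to PBAF, and Brd9 to the non-canonical complex. Of these 6, 4 were lower in DRG than in OPC and 2 did not pass, beside 31.1% of all genes lower, and 3 were higher in OPC than in astrocytes, beside 26.3%. Arid1a had 112, 103 and 102 CPM in DRG libraries, 264, 230 and 219 CPM in OPC libraries and 159, 151 and 138 CPM in astrocyte libraries. The 3 groups did not overlap, and Arid1a was 2.25-fold lower in DRG than in OPC (adjusted p = 0.00015). Its difference of -0.50 from astrocytes (adjusted p = 0.0149) was lost without DRG replicate 2 or 3 (adjusted p = 0.0601 and 0.0607) and after removal of the length trend (0.0839). Arid1b had 108, 108 and 96 CPM in DRG libraries, 124, 97.7 and 101 CPM in OPC libraries and 97.7, 83.5 and 92.5 CPM in astrocyte libraries, and passed in no comparison (adjusted p from 0.232 to 0.82).

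Arid2 had 62.6, 48 and 43.9 CPM in DRG libraries, 182, 167 and 108 CPM in OPC libraries and 113, 122 and 124 CPM in astrocyte libraries. It was 2.95-fold lower in DRG than in OPC (adjusted p = 0.000342) and 2.32-fold lower than in astrocytes (adjusted p = 0.00136). Its PBAF partner Brd7 had 74.1, 46.4 and 44.7 CPM in DRG libraries, 165, 144 and 132 CPM in OPC libraries and 80.1, 92.1 and 90.7 CPM in astrocyte libraries. Brd7 was 2.67-fold lower in DRG than in OPC (adjusted p = 0.000505). Its smaller differences from astrocytes were unstable: the DRG difference (-0.67, adjusted p = 0.0236) was lost without DRG replicate 2 or 3 or astrocyte replicate 2 or 3 (adjusted p from 0.0615 to 0.0965), and the OPC difference (0.75, adjusted p = 0.0173) without OPC replicate 1 or 3 or astrocyte replicate 1 (0.0504 to 0.052). Brd9 had 60.2, 50.3 and 54.5 CPM in DRG libraries, 116, 103 and 89.4 CPM in OPC libraries and 50.8, 55.9 and 51.2 CPM in astrocyte libraries. Its OPC libraries lay above both other groups, with log2 -0.91 for DRG against OPC (adjusted p = 0.0011) and 0.97 for OPC against astrocytes (adjusted p = 0.00111). Pbrm1, the bromodomain scaffold of PBAF, passed in no comparison. Pbrm1 had 142, 113 and 135 CPM in DRG libraries, 243, 228 and 80.6 CPM in OPC libraries and 119, 187 and 164 CPM in astrocyte libraries. OPC replicate 3 was the lowest library of all, and the difference of DRG from OPC passed without OPC replicate 3 (-0.61, adjusted p = 0.0376).

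Among the swapped BAF subunits, 2 of the 10 tested were higher and 6 lower in DRG than in OPC, beside 28.4% and 31.1% of all genes. In DRG against astrocytes 4 were higher and 2 lower, beside 27.4% and 32.7%, and 9 were higher in OPC than in astrocytes, beside 26.3%. Actl6b had the largest tested member difference against astrocytes in both comparisons, while Chd3 of NuRD had that of DRG against OPC. Actl6b (BAF53b), the actin-like subunit of neuronal BAF, had 55, 41.5 and 44 CPM in DRG libraries, 2.46, 2.75 and 2.6 CPM in OPC libraries and 0.132, 0.142 and 0.332 CPM in astrocyte libraries. No groups overlapped. The DRG libraries exceeded astrocytes 235-fold, with a log2 difference of 7.87 ± 0.42 SE and an adjusted p of 1.73e-06. They exceeded OPC libraries 18-fold (4.17 ± 0.34, adjusted p = 1.49e-05), and OPC libraries in turn exceeded astrocytes 13-fold (adjusted p = 7.27e-05). Its progenitor counterpart Actl6a (BAF53a) had 15.6, 20.2 and 24.3 CPM in DRG libraries, 122, 169 and 177 CPM in OPC libraries and 48.2, 72 and 75.7 CPM in astrocyte libraries. Actl6a was thus 7.76-fold lower in DRG than in OPC (adjusted p = 2.38e-05) and 3.25-fold lower than in astrocytes (adjusted p = 0.000405), and it remained detected in every DRG library.

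The BAF45 genes Phf10, Dpf1, Dpf2 and Dpf3 are alternatives for another position. Phf10 (BAF45a), of progenitor and PBAF complexes, had 70.7, 44.9 and 40 CPM in DRG libraries, 113, 131 and 128 CPM in OPC libraries and 50.4, 67.2 and 65.2 CPM in astrocyte libraries. DRG and astrocyte libraries overlapped, and Phf10 was 2.39-fold lower in DRG than in OPC (adjusted p = 0.00153). Without DRG replicate 1, its highest DRG library, it also passed against astrocytes (-0.51, adjusted p = 0.0449). Dpf1 (BAF45b), a neuronal subunit, had 25, 31.3 and 13.2 CPM in DRG libraries, 58.6, 73.9 and 77.1 CPM in OPC libraries and 17, 19.4 and 17 CPM in astrocyte libraries. Dpf1 was 3.01-fold lower in DRG than in OPC (adjusted p = 0.00152) and did not pass against astrocytes (0.38, adjusted p = 0.285). Without DRG replicate 3, its lowest DRG library, that difference was 0.67 with adjusted p = 0.0325.

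Dpf3 (BAF45c), named with Dpf1 as a neuronal subunit, was lowest in DRG neurons by its 1 counted accession. It had 0.305, 0.379 and 0.49 CPM in DRG libraries, 8.11, 8.65 and 13.6 CPM in OPC libraries and 3.86, 2.9 and 2.99 CPM in astrocyte libraries, which came from 9, 18 and 19 reads in DRG libraries and 108 to 566 reads elsewhere. The difference of DRG from OPC was 25.6-fold (adjusted p = 1.55e-05). The other Dpf3 accessions had 0 counts in every library. In GENCODE they name the same transcript, so reads on it fit more than 1 accession and could not be assigned. The Dpf3 reads therefore say nothing of that transcript. Dpf2 (BAF45d) was counted through 1 accession, which alone has the insert of 42 bases shown above. It had 341, 595 and 507 counts in DRG libraries, 173, 301 and 312 counts in OPC libraries and 34, 10 and 25 counts in astrocyte libraries. In CPM these were 11.5, 12.5 and 13.1 in DRG libraries, 3.87, 6.13 and 7.51 in OPC libraries and 0.639, 0.237 and 0.691 in astrocyte libraries, with no overlap between groups. Reads of this accession were 23.6-fold higher in DRG than in astrocytes (log2 4.56 ± 0.47, adjusted p = 4.83e-05), and OPCs exceeded astrocytes 11.1-fold (adjusted p = 0.000304). The 2.12-fold difference of DRG from OPC (adjusted p = 0.0422) was lost without any 1 of the DRG libraries, OPC replicate 1 or 2 or astrocyte replicate 3 (adjusted p from 0.0512 to 0.123), and with library size alone (0.0779). The other Dpf2 accession had 0 counts in every library, so these reads say nothing of the rest of the Dpf2 transcripts.

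Ss18l1 (CREST), the neuronal counterpart of Ss18, had 46.6, 35.1 and 30.9 CPM in DRG libraries, 39.6, 26.5 and 25.6 CPM in OPC libraries and 17.7, 13.4 and 16.3 CPM in astrocyte libraries. DRG and OPC libraries overlapped (adjusted p = 0.329), and the DRG libraries were 2.37-fold above astrocytes (adjusted p = 0.00245). The BCL7 subunits differed among themselves. Bcl7a had 46.7, 39 and 42.5 CPM in DRG libraries, 158, 121 and 115 CPM in OPC libraries and 25.7, 32.7 and 26.3 CPM in astrocyte libraries. It was 3.08-fold lower in DRG than in OPC (adjusted p = 9.76e-05), and OPCs exceeded astrocytes 4.66-fold (adjusted p = 4.13e-05). Its rise of 0.60 in DRG over astrocytes (adjusted p = 0.0195) was lost without astrocyte replicate 1 or 3 (adjusted p = 0.0589 and 0.0763) and with library size alone (0.135).

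Bcl7b had 21.7, 41.6 and 50.1 CPM in DRG libraries, 44.2, 47.1 and 53.8 CPM in OPC libraries and 49.1, 37.9 and 43.9 CPM in astrocyte libraries, and passed in no comparison. Bcl7c had 11.3, 19.3 and 20.7 CPM in DRG libraries, 36.4, 54.9 and 73 CPM in OPC libraries and 19, 36 and 27.5 CPM in astrocyte libraries. Its DRG libraries were 3.2-fold below OPC (adjusted p = 0.00288). Its rise of 0.99 in OPC over astrocytes (adjusted p = 0.0382) was 0.58 without OPC replicate 3 (adjusted p = 0.226), and was also lost without OPC replicate 2, astrocyte replicate 1 or 3 or DRG replicate 2 (adjusted p from 0.0504 to 0.103).

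Of the 9 ISWI members tested, 6 were lower in DRG than in OPC and 3 did not pass, beside 31.1% of all genes lower. Against astrocytes 4 were lower in DRG, beside 32.7% of all genes, and 2 were higher in OPC, beside 26.3%. Smarca5 (SNF2H), the ISWI ATPase counted here, had 135, 120 and 134 CPM in DRG libraries, 360, 383 and 128 CPM in OPC libraries and 185, 225 and 208 CPM in astrocyte libraries. OPC replicate 3 fell among the DRG libraries, while the other OPC libraries lay above all others. Smarca5 was 2.24-fold lower in DRG neurons, with a log2 difference from OPC of -1.16 ± 0.35 (adjusted p = 0.0175), and this call was lost without OPC replicate 1 (0.0577), OPC replicate 2 (0.0682) or DRG replicate 2 (0.0589). Without OPC replicate 3, Smarca5 also passed in DRG against astrocytes (-0.57, adjusted p = 0.00712) and in OPC against astrocytes (0.70, adjusted p = 0.00757). The other ISWI ATPase, Smarca1 (SNF2L), was counted only through isoform-specific bases and not tested, with 0.135, 0.211 and 0.361 CPM in DRG libraries, 0.224, 0.305 and 0.0962 CPM in OPC libraries and 0.0188, 0.0712 and 0.111 CPM in astrocyte libraries.

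The partners that give ISWI its targets varied in size of difference. Baz1a (ACF1), of the spacing complex ACF, had 7.75, 5.26 and 4.83 CPM in DRG libraries, 51, 51.8 and 24.4 CPM in OPC libraries and 16.1, 32.9 and 19.7 CPM in astrocyte libraries. It was 7.14-fold lower in DRG than in OPC (adjusted p = 0.000299) and 3.86-fold lower than in astrocytes (adjusted p = 0.00213). Its OPC libraries passed above astrocytes only without astrocyte replicate 2 (1.25, adjusted p = 0.0292) or OPC replicate 3 (1.01, adjusted p = 0.0446), or with the length trend removed (0.91, adjusted p = 0.0351). Baz1b (WSTF) had 95.3, 80.5 and 95.3 CPM in DRG libraries, 362, 430 and 259 CPM in OPC libraries and 191, 225 and 214 CPM in astrocyte libraries. Its 3 groups did not overlap, and it was 3.88-fold lower in DRG than in OPC (adjusted p = 6.13e-05) and 2.32-fold lower than in astrocytes (adjusted p = 0.000808).

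Cecr2, of the CERF complex, had 3.72, 2.27 and 3.92 CPM in DRG libraries, 25.1, 14.1 and 10 CPM in OPC libraries and 12.5, 9.12 and 9.18 CPM in astrocyte libraries. It was 4.97-fold lower in DRG than in OPC (adjusted p = 0.000936) and 3.1-fold lower than in astrocytes (adjusted p = 0.00557). Pole3, a histone-fold protein of CHRAC that also serves DNA polymerase epsilon, had 14.3, 11.8 and 11.3 CPM in DRG libraries, 30.8, 37.5 and 35.4 CPM in OPC libraries and 27.3, 36.9 and 34.9 CPM in astrocyte libraries. OPC and astrocyte libraries overlapped, with DRG 2.77-fold below OPC (adjusted p = 0.000291) and 2.65-fold below astrocytes (adjusted p = 0.000382). The sum of genes of dividing cells was likewise lowest in DRG libraries, as given above.

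Baz2a (TIP5), which silences ribosomal RNA genes, had 87.3, 110 and 120 CPM in DRG libraries, 184, 166 and 168 CPM in OPC libraries and 84.1, 101 and 80.5 CPM in astrocyte libraries. Its log2 difference was 0.96 for OPC against astrocytes (adjusted p = 0.0017) and -0.70 for DRG against OPC (adjusted p = 0.00652, or 0.058 without OPC replicate 3). Its paralog Baz2b had 56.5, 34.2 and 35.8 CPM in DRG libraries, 49.9, 42.1 and 19.7 CPM in OPC libraries and 42, 54 and 40.5 CPM in astrocyte libraries and passed in no comparison. Bptf, of NURF, and Rsf1, of RSF, passed in no comparison with all libraries. Rsf1 had 84.2, 65.3 and 68.8 CPM in DRG libraries, 151, 116 and 35.9 CPM in OPC libraries and 83.6, 101 and 87.1 CPM in astrocyte libraries. Bptf had 124, 117 and 132 CPM in DRG libraries, 236, 225 and 116 CPM in OPC libraries and 151, 198 and 168 CPM in astrocyte libraries. For both genes OPC replicate 3 was the lowest of the 9 libraries. Without it the difference of DRG from OPC was -0.63 for Rsf1 (adjusted p = 0.0214) and -0.64 for Bptf (adjusted p = 0.00962), and Bptf also passed as lower in DRG than in astrocytes (-0.38, adjusted p = 0.0477).

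Rbbp4 and Rbbp7 are histone-binding proteins shared by NuRD, NURF and other complexes. Rbbp4 had 161, 179 and 189 CPM in DRG libraries, 661, 667 and 834 CPM in OPC libraries and 317, 366 and 363 CPM in astrocyte libraries. Its groups did not overlap, with DRG 4.09-fold below OPC (log2 -2.03 ± 0.17, adjusted p = 1.79e-05). Rbbp7 had 386, 403 and 357 CPM in DRG libraries, 309, 446 and 379 CPM in OPC libraries and 246, 345 and 321 CPM in astrocyte libraries, and passed in no comparison (adjusted p from 0.172 to 0.953).

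Among the 6 CHD members outside NuRD, Chd7 stood out in size. Chd7, the CHARGE syndrome gene that mouse oligodendrocyte development needs, had 14.8, 19.1 and 13.9 CPM in DRG libraries, 350, 270 and 164 CPM in OPC libraries and 47, 44.8 and 43.4 CPM in astrocyte libraries. It was 16.4-fold lower in DRG than in OPC (log2 -4.04 ± 0.29, adjusted p = 9.4e-06), 2.83-fold lower than in astrocytes (adjusted p = 0.00109), and OPCs exceeded astrocytes 5.8-fold (adjusted p = 0.000115). Its OPC libraries spread the most, with replicate 3 lowest. Its paralog Chd8, an autism risk gene, had 132, 130 and 130 CPM in DRG libraries, 253, 207 and 143 CPM in OPC libraries and 157, 172 and 153 CPM in astrocyte libraries. The difference of DRG from OPC, -0.62 for Chd8 with adjusted p = 0.0268, was lost without any 1 of the DRG libraries or OPC replicate 1 or 2 (0.0558 to 0.0923), and with RLE factors (0.0731) and DESeq2 (0.0653).

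Chd1, the nucleosome spacer of transcribed genes, had 45.6, 35.2 and 35.5 CPM in DRG libraries, 110, 128 and 42.2 CPM in OPC libraries and 57.4, 85.8 and 65.5 CPM in astrocyte libraries. OPC replicate 3 lay within the DRG range and apart from the other OPC libraries. Chd1 was 2.41-fold lower in DRG than in OPC (adjusted p = 0.0148), a call lost without DRG replicate 2 (0.0523), DRG replicate 3 (0.0506) or OPC replicate 2 (0.0608). Without OPC replicate 3 it also passed as lower in DRG than in astrocytes (-0.75, adjusted p = 0.0125). Chd2, Chd6 and Chd9 passed in no comparison with all libraries. Chd2 had 63.9, 83.7 and 75.9 CPM in DRG libraries, 139, 116 and 62.9 CPM in OPC libraries and 95.7, 109 and 94.2 CPM in astrocyte libraries. Chd6 had 127, 161 and 143 CPM in DRG libraries, 231, 187 and 120 CPM in OPC libraries and 152, 165 and 171 CPM in astrocyte libraries. Chd9 had 117, 132 and 135 CPM in DRG libraries, 97.6, 93.9 and 29.9 CPM in OPC libraries and 102, 108 and 107 CPM in astrocyte libraries. In all of these OPC replicate 3 was the lowest OPC library. Without it, Chd2 passed as lower (-0.53, adjusted p = 0.0279) and Chd9 as higher (0.67, adjusted p = 0.00414) in DRG than in OPC, and Chd9 also as higher in DRG than in astrocytes (0.37, adjusted p = 0.0261).

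Of the 12 NuRD members, 3 were higher and 8 lower in DRG than in OPC, beside 28.4% and 31.1% of all genes. In DRG against astrocytes 3 were higher, 4 lower and 5 not passed, beside 27.4% higher and 32.7% lower of all genes, and in OPC against astrocytes 4 were higher and 3 lower, beside 26.3% and 25.5%. In DRG against OPC the higher ones were Chd3, Chd5 and Mta3. Chd3 (Mi-2 alpha) had 851, 491 and 609 CPM in DRG libraries, 23.4, 20.9 and 16 CPM in OPC libraries and 113, 181 and 154 CPM in astrocyte libraries. Without overlap of any groups, DRG neurons exceeded OPCs 32.3-fold, a log2 difference of 5.01 ± 0.31 with an adjusted p of 4.41e-06. They exceeded astrocytes 4.34-fold (adjusted p = 0.00017), and OPCs lay 7.44-fold below astrocytes (adjusted p = 6.85e-05). Chd4 (Mi-2 beta) had 406, 381 and 372 CPM in DRG libraries, 726, 606 and 560 CPM in OPC libraries and 449, 551 and 492 CPM in astrocyte libraries, with a log2 difference of -0.71 between DRG and OPC (adjusted p = 0.00526) and no call for DRG or OPC against astrocytes (adjusted p = 0.0854 for DRG and 0.113 for OPC). Chd5, the neuronal NuRD ATPase, was counted only through 1 accession, which alone has the 111 bases shown above. It had 6.43, 3.94 and 2.87 CPM in DRG libraries, 1.12, 1.51 and 1.35 CPM in OPC libraries and 1.39, 0.404 and 0.774 CPM in astrocyte libraries, so that the DRG libraries lay above all others, 3.32-fold above OPC (adjusted p = 0.0136) and 5.1-fold above astrocytes (adjusted p = 0.00325).

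The MTA scaffold subunits also split. Mta2 had 50.7, 39.2 and 38.9 CPM in DRG libraries, 216, 204 and 231 CPM in OPC libraries and 140, 163 and 152 CPM in astrocyte libraries. It was 5.06-fold lower in DRG than in OPC (adjusted p = 9.04e-06) and 3.53-fold lower than in astrocytes (adjusted p = 2.37e-05). Its rise of 0.52 in OPC over astrocytes (adjusted p = 0.0235) was lost without OPC replicate 3 or astrocyte replicate 1 or 3 (adjusted p from 0.0716 to 0.161). Mta1 had 93.6, 77.3 and 80.5 CPM in DRG libraries, 165, 166 and 167 CPM in OPC libraries and 89.2, 112 and 105 CPM in astrocyte libraries. Mta1 fell by 0.98 on the log2 scale in DRG against OPC (adjusted p = 0.000521), and DRG and astrocyte libraries overlapped. Mta3, over its 4 accessions, had 4.16, 5.94 and 6.63 CPM in DRG libraries, 1.21, 2.04 and 1.71 CPM in OPC libraries and 3.2, 3.61 and 3.43 CPM in astrocyte libraries. It was 3.38-fold higher in DRG than in OPC (adjusted p = 0.00147), and without DRG replicate 1 it passed against astrocytes too (0.89, adjusted p = 0.0435). Its fall of 1.05 in OPC against astrocytes (adjusted p = 0.0231) was lost without OPC replicate 1 (0.068), astrocyte replicate 2 (0.0579) or astrocyte replicate 3 (0.0591). Of the 4 accessions of Mta3, 1 had 0 counts, and the others differed in sign in DRG against astrocytes when fitted per accession. NM_001171053 gave 1.47 (adjusted p = 0.00603) and NM_054082 gave 0.96 (adjusted p = 0.0303), while NM_001171052 gave -1.24 and did not pass (adjusted p = 0.0639).

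The deacetylases Hdac1 and Hdac2 took different orders. Hdac1 had 38.2, 31.2 and 34.1 CPM in DRG libraries, 133, 130 and 150 CPM in OPC libraries and 125, 137 and 140 CPM in astrocyte libraries. It was 3.99-fold lower in DRG than in OPC (adjusted p = 1.23e-05) and 3.89-fold lower than in astrocytes (adjusted p = 1.05e-05), and OPC and astrocyte libraries overlapped (adjusted p = 0.852). Hdac2 had 228, 163 and 167 CPM in DRG libraries, 330, 333 and 260 CPM in OPC libraries and 84.8, 139 and 127 CPM in astrocyte libraries. It was 2.63-fold higher in OPC than in astrocytes (adjusted p = 0.00116). The smaller Hdac2 differences of DRG from OPC (-0.72, adjusted p = 0.0224) and from astrocytes (0.67, adjusted p = 0.0305) were lost without DRG replicate 2 or 3 or any 1 of the OPC libraries for the first (adjusted p from 0.0577 to 0.0835) and without DRG replicate 1 or astrocyte replicate 1 or 3 for the second (0.0584 to 0.0961).

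Mbd3, which joins NuRD without binding methylated DNA strongly, had 67.2, 62.5 and 58.8 CPM in DRG libraries, 236, 239 and 271 CPM in OPC libraries and 105, 127 and 137 CPM in astrocyte libraries. The groups did not overlap, and DRG lay 3.95-fold below OPC (adjusted p = 1.49e-05). Mbd2, its methyl-CpG-binding alternative, had 62, 62.8 and 66.7 CPM in DRG libraries, 54.5, 53 and 53.9 CPM in OPC libraries and 93.4, 77.6 and 78.1 CPM in astrocyte libraries. Mbd2 was lower in OPC than in astrocytes (-0.63, adjusted p = 0.00617). Its difference of -0.38 between DRG and astrocytes (adjusted p = 0.0465) was lost under 16 of 18 alternatives, among them each library left out in turn (adjusted p from 0.0566 to 0.143). Without OPC replicate 3 Mbd2 passed as higher in DRG than in OPC (0.50, adjusted p = 0.0252). Gatad2a and Gatad2b, which bridge the MBD and CHD parts, were lower in DRG than in OPC. Gatad2b had 26, 23.5 and 26 CPM in DRG libraries, 47.8, 43.5 and 35 CPM in OPC libraries and 30.4, 31.9 and 33.9 CPM in astrocyte libraries (DRG against OPC -0.74, adjusted p = 0.00624). Gatad2a had 1.69, 2.11 and 2.27 CPM of isoform-specific reads in DRG libraries, 3.04, 5.33 and 5.46 CPM in OPC libraries and 1.88, 2.99 and 2.63 CPM in astrocyte libraries. Its OPC libraries lay above both other groups, and DRG against OPC gave -1.19 (adjusted p = 0.0161), or -0.81 without OPC replicate 3 (adjusted p = 0.112) and -1.08 without OPC replicate 2 (0.0545). Without OPC replicate 1 it passed as higher in OPC than in astrocytes (1.12, adjusted p = 0.0259).

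The remaining ATPases were Ino80, Hells and Atrx. Ino80, which exchanges histone variants, had 32.3, 26.7 and 29.8 CPM in DRG libraries, 60.6, 77.1 and 47.9 CPM in OPC libraries and 50.2, 67.2 and 56.3 CPM in astrocyte libraries. It was 2.09-fold lower in DRG than in OPC (adjusted p = 0.00225), and its log2 difference from astrocytes was -0.97 (adjusted p = 0.00372). Hells (LSH), needed for DNA methylation of repeats and high in dividing cells, had 8.05, 7.01 and 8.18 CPM in DRG libraries, 63.4, 111 and 27.2 CPM in OPC libraries and 8.95, 51.7 and 44.8 CPM in astrocyte libraries. Astrocyte replicate 1 lay close to the DRG libraries, and it was also the astrocyte library lowest in genes of dividing cells, at 360 CPM, against 2115 and 1551 CPM in the others. Hells was 8.69-fold lower in DRG than in OPC (adjusted p = 0.00333) and 4.54-fold lower than in astrocytes (adjusted p = 0.0166, or 0.0513 without astrocyte replicate 2 and 0.0559 without DRG replicate 2). Atrx, which deposits histone H3.3 with Daxx, had 154, 98.6 and 101 CPM in DRG libraries, 412, 304 and 45.4 CPM in OPC libraries and 168, 278 and 231 CPM in astrocyte libraries. OPC replicate 3 was the lowest of all 9 libraries. Atrx passed in no comparison with it (adjusted p from 0.15 to 0.838), and without it was lower in DRG than in OPC (-1.35, adjusted p = 0.00488) and than in astrocytes (-0.84, adjusted p = 0.0221).

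Paralog balance was read within each library as the ratio of counts per transcript length, so that library size drops out. It could be read for 15 of the 26 pairs listed, those whose genes both have 1 accession. The log2 ratio of Actl6b to Actl6a was 2.15, 1.37 and 1.19 in DRG libraries, -5.29, -5.60 and -5.75 in OPC libraries and -8.16, -8.62 and -7.49 in astrocyte libraries. Neuronal Actl6b therefore exceeded Actl6a 2.97-fold in DRG neurons, while Actl6a exceeded it 46.8-fold in OPCs and 272-fold in astrocytes. The log2 ratio of Chd3 to Chd4 was 0.95, 0.25 and 0.59 in DRG libraries, -5.07, -4.97 and -5.24 in OPC libraries and -2.11, -1.72 and -1.79 in astrocyte libraries. Chd3 was 1.51 times Chd4 in DRG neurons, and Chd4 was 34.2 times Chd3 in OPCs and 3.66 times in astrocytes.

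The ratio of Hdac2 to Hdac1 was 5.44 in DRG neurons, 2.26 in OPCs and 0.868 in astrocytes, and that of Rbbp7 to Rbbp4 was 4.25 in DRG neurons, 1.02 in OPCs and 1.7 in astrocytes. Mta1 was 2.21 times Mta2 in DRG neurons, 0.864 times in OPCs and 0.759 times in astrocytes. In each of these pairs the DRG libraries lay above both glial groups, and the gene that was lower in DRG than in OPC by the larger factor was Hdac1, Rbbp4 or Mta2. Mbd2 was 0.865 times Mbd3 in DRG neurons, 0.185 times in OPCs and 0.575 times in astrocytes. Chd7 was 0.0967 times Chd8 in DRG neurons, 1.02 times in OPCs and 0.225 times in astrocytes.

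Smarcd3 against Smarcd1 set astrocytes apart: the ratio was 0.407 in DRG neurons and 0.409 in OPCs, with overlapping libraries, and 2.11 in astrocytes. Arid1b against Arid1a was 0.712 in DRG neurons, 0.326 in OPCs and 0.441 in astrocytes. Over the 15 pairs, the libraries of the groups did not overlap in 12 pairs for DRG against astrocytes, 11 for DRG against OPC and 12 for OPC against astrocytes. For single genes, 69%, 67.4% and 61.3% of all tested genes had no overlap in the same comparisons. With 3 libraries a group, the exact two-sided permutation test cannot go below p = 0.1, and over the 45 tests the smallest adjusted p was 0.129, so no ratio could pass. The remaining 11 pairs involve a gene with several accessions and gave no interpretable ratio.

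**Figure D4:**
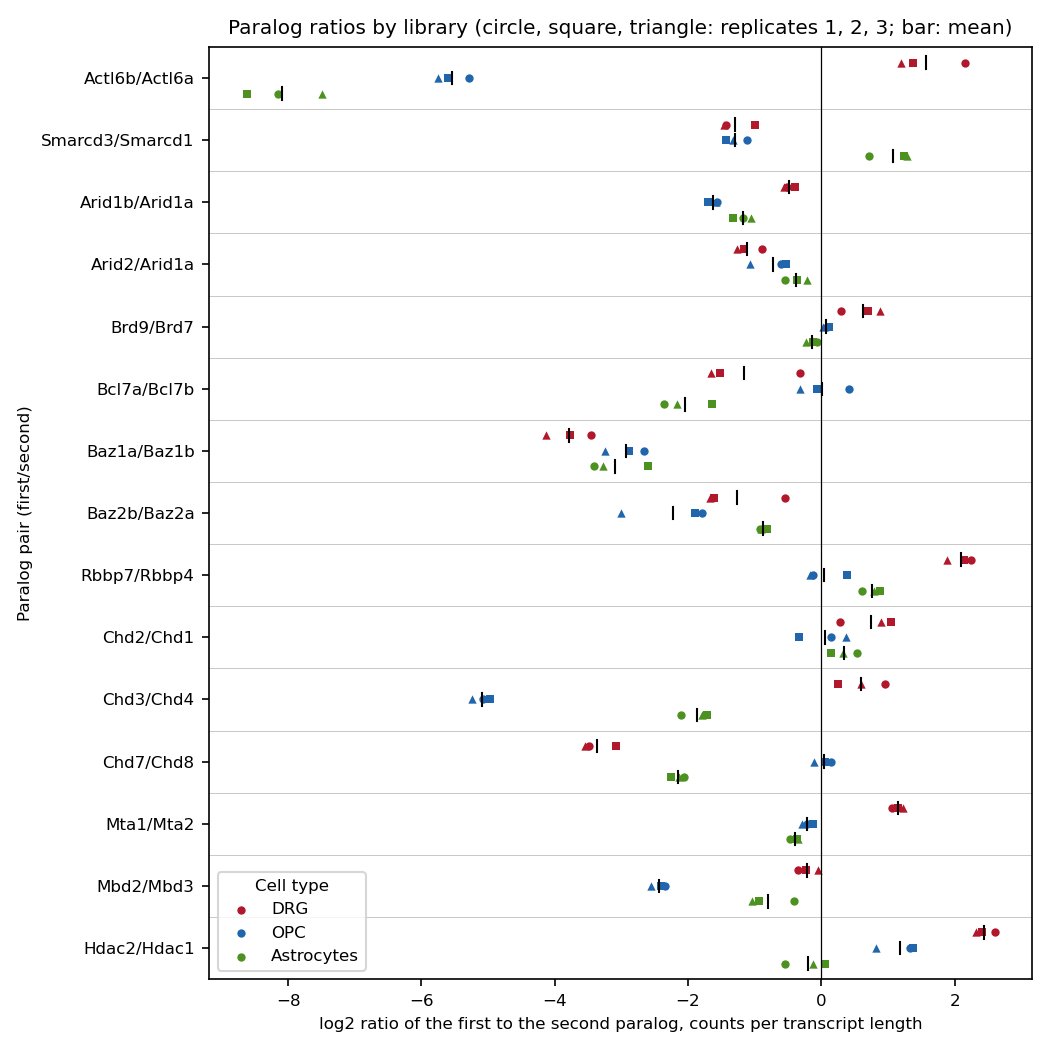
log2 ratio of the first to the second paralog in counts per transcript length (x axis) for 15 pairs (y axis), with 1 point a library, DRG above OPC above astrocytes within each pair, and a bar at the group mean. Actl6b/Actl6a and Chd3/Chd4 span the widest range, and DRG libraries lie to the right of both glial groups for Hdac2/Hdac1, Rbbp7/Rbbp4 and Mta1/Mta2.

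The remodeler genes are long, and OPC replicate 3 was low in long transcripts. The 47 members with 1 accession had a median transcript length of 5717 nucleotides, against 2922 for all tested genes with a length. The log2 ratio of OPC replicate 3 to the mean of replicates 1 and 2 had a median of 0.28 over all tested genes in the shortest quartile of lengths and -0.29 in the longest. The 26 members of the longest quartile had a median of -0.85, and the 7 of the shortest quartile 0.09. All 13 members of at least 8000 nucleotides were lower in replicate 3, with a median of -0.90, beside -0.59 for all 693 genes of that length. Of 15 members under 2500 nucleotides 4 were lower, with a median of 0.08, beside 0.22 for all genes of that length.

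Atrx was the most affected at -2.96, followed by Rsf1 at -1.88, Chd9 at -1.68, Hells at -1.63, Pbrm1 at -1.55, Smarca5 at -1.54 and Chd1 at -1.49. Length alone did not set the order: Baz2a at 8369 nucleotides gave -0.06 and Arid1b at 11325 nucleotides -0.12. Spearman's rank correlation of the ratio with length was -0.73 across the 47 members and -0.37 across all tested genes, as a description across genes of 1 library, which share depth and are not replicates. Each library was also set against the other libraries of its group. The difference between the longest and shortest quartiles was -0.57 in OPC replicate 3 and between -0.12 and 0.13 in the DRG and astrocyte libraries. It was 0.41 and 0.20 in OPC replicates 1 and 2, but the mean they were set against includes replicate 3. Without OPC replicate 3, 47 members passed in DRG against OPC, 8 higher and 39 lower, of which 40 were among the 43 called with it. Removing the length trend from each library gave 46, with 7 higher and 39 lower, and kept all 43.

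**Figure D5:**
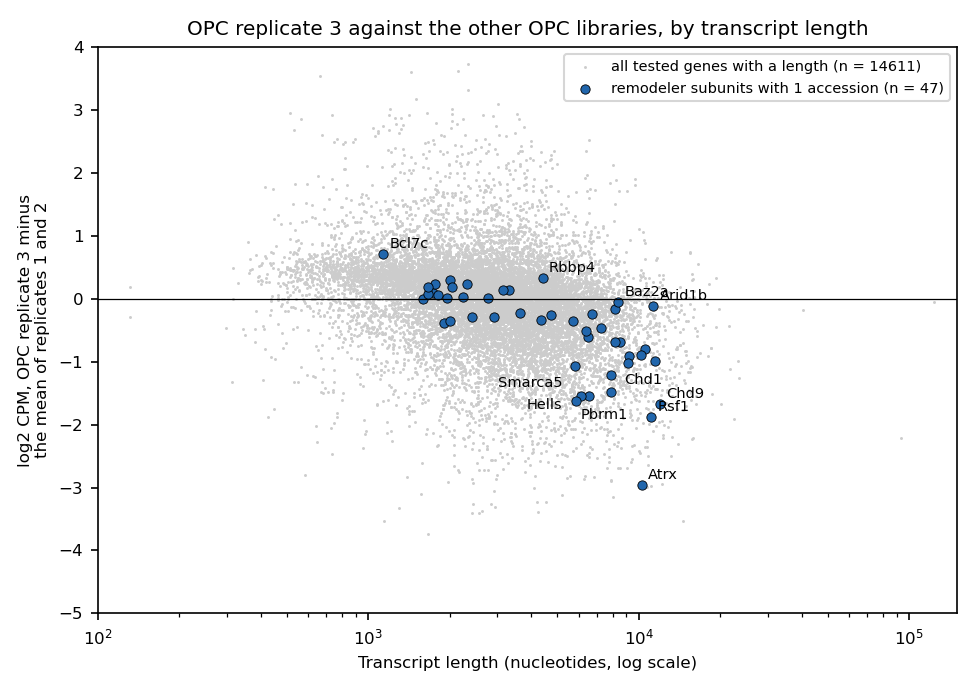
log2 CPM in OPC replicate 3 minus the mean of OPC replicates 1 and 2 (y axis) against transcript length in nucleotides (x axis, log scale), for 14611 tested genes (grey) and the 47 members with 1 accession (blue). The members longer than 8000 nucleotides all lie below 0, with Atrx lowest at -2.96, and 1 gene below -5 is not drawn.

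A list of 37 related remodeler genes outside the members, such as subunits of the INO80 and TIP60 complexes and further Snf2 ATPases, gave 2 higher, 18 lower and 17 not passed in DRG against OPC, beside 28.4% higher and 31.1% lower of all genes. It gave 16 lower and 21 not passed in DRG against astrocytes, beside 27.4% higher and 32.7% lower of all genes, and 13 higher and 1 lower in OPC against astrocytes, beside 26.3% and 25.5%. Differences of at least 4-fold were found in 4 of them. Cdca7, the partner that activates Hells, had 1.73, 1.96 and 3.79 CPM in DRG libraries, 71.9, 136 and 133 CPM in OPC libraries and 10.6, 32.2 and 22.3 CPM in astrocyte libraries, with no overlap between groups. Chd1l, a PARP-activated Snf2 ATPase, had 2.5, 3.83 and 4.31 CPM in DRG libraries, 15.3, 21.1 and 19.4 CPM in OPC libraries and 20.5, 22.8 and 23.6 CPM in astrocyte libraries. Rad54l, a recombination ATPase, has 3 accessions and was counted only through isoform-specific reads. It had 0 to 0.021 CPM in DRG libraries, 2.33 to 3.62 CPM in OPC libraries and 0.132 to 1.69 CPM in astrocyte libraries. Cdk2ap1, a NuRD-associated protein, had 74.4 to 129 CPM in DRG libraries, 399 to 525 CPM in OPC libraries and 128 to 279 CPM in astrocyte libraries.

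Promoter sequence was available from RefSeq (GRCm38.p6) for 46 members, as 250 bases before and 50 after each start. Of their 53 windows, 90.57% held at least 15 CpG, beside 34.64% of all 32851 windows. The E2F-type motifs TTTCCCGC and TTTGGCGC were searched on both strands of the 250 upstream bases. A match was found in 4 of the 46 members, which is 7.55% of their windows, beside 1.3% of all windows. Both motifs hold a CpG, and the share of CpG-rich windows with a match was not counted. These shares therefore do not compare windows of like CpG content. All 4 were TTTCCCGC, shown in capitals with 20 bases on either side. A match is a description of these letters and not a binding site. The stretches lie at chr4:133754013-133754060 (minus strand), chr8:88362173-88362220 (minus strand), chr19:38930908-38930955 (plus strand) and chr15:99702136-99702183 (plus strand).
Arid1a: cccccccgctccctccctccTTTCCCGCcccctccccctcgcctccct
Brd7: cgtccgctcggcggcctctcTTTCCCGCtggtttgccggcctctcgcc
Hells: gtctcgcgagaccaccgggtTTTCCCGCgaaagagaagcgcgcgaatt
Smarcd1: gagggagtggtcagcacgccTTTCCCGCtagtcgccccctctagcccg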

How the data were processed

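Per the submitters' processing notes, reads were aligned to mm10 with TopHat2 and counted with HTSeq; versions and the strand setting are not given in the sources used here. Per the labels, libraries were made with a stranded mRNA kit. The deposited counts are whole-number counts per RefSeq accession, with reads on more than 1 transcript left unassigned. The 5 summary lines that name no gene were kept out of library sizes, and assigned reads were 53.1% to 62.9% of all reads in a library. Of 33787 accessions, 32417 were named through RefSeq and 187 through GENCODE, and counts were summed per gene. Reads of antisense or overlapping genes could not be checked for strand.

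Genes passing filterByExpr (minimum count 10) were fitted with edgeR 4.0.16 (R 4.3.3), TMM scaling and 1 coefficient per cell type over 9 libraries. The quasi-likelihood F-test was adjusted by Benjamini-Hochberg over 14850 genes, with a threshold of 0.05, and the fit was tested on simulated data. Standard errors were taken as the absolute log2 fold change over the square root of F. Paralog ratios used counts plus 0.1. The members and lists were chosen with earlier results of these data known. Full values were given for paralog pairs and members with a called difference of at least 2-fold and for all ATPases. The design text names biological replicate experiments. It does not say what a replicate number shares.

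Alternatives were RLE factors, library size alone, no filter, DESeq2 1.42.0, only the compared libraries, a replicate block, a length trend (lowess) removed per library, the most counted accession, leaving out libraries, and, added after seeing the data, a fit per accession.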

Additional observations from a re-analysis of the deposited data

How the results depend on the processing

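Of the 101 called differences of members, 78 kept their call under all 18 alternatives and 23 lost it under at least 1, while 30 differences that had not passed did so under at least 1. None of the gene-level alternatives turned a called direction round. Leaving out each library in turn gave 26 to 35 members called in DRG against astrocytes, 37 to 47 in DRG against OPC and 24 to 28 in OPC against astrocytes, and over all genes 7758 to 9439, 7660 to 9452 and 6492 to 8021. Counted per accession, Smarcc2 turned round in OPC against astrocytes, at -1.45 for NM_001114097 beside 0.68 for the gene sum, because its accessions moved apart, and Mta3, not called in DRG against astrocytes at 0.71, gave -1.24 for NM_001171052. The labels do not say what a replicate number shares, and 9 correlations of same-numbered deviations ran from -0.0355 to 0.128, with 1 over 0.1, so the samples were not treated as paired. A replicate block gave 29, 43 and 28 members called, with 3 calls lost and 2 gained. Of 495 alternative values of the paralog ratios 3 moved by more than the spread, all with the length trend removed: Arid1b/Arid1a to 0.58 for DRG against astrocytes and 0.98 for DRG against OPC, and Brd9/Brd7 to 0.30 for OPC against astrocytes. Library size alone and RLE factors moved the median of all genes in DRG against OPC by -0.15 and 0.17. Depth limits the genes with few isoform-specific reads, such as Dpf3 with 9 to 566 a library.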
